A study of Mus musculus with 11 samples.

Results

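The genes described here are the DNA replication and S-phase genes, a fixed list of 47 genes chosen by function that covers the replicative helicase, origin licensing, the polymerases, the sliding clamp, nucleotide supply and the copying of chromatin marks. The list was read by gene symbol in a table of 10885 genes, which held 44 of the 47. The genes Gins1, Orc1 and Exo1 were not analysed here. The table lists only genes that reach a normalised value of 109.3 in at least 1 library, so a gene of low level was kept only through the libraries in which it was highest. Among the 44 this bears on Fen1, whose highest value was 111.9, and Gins2, whose highest value was 115.2. The value above 109.3 that kept Fen1 came from 1 knock-in lymph node library.

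RNA from whole dissociated cells of spleen and lymph node was sequenced in 11 libraries, taken from 6 mice. Mice 1 and 2 were wild type (Wt) and gave 2 spleen and 2 lymph node libraries. Mice labelled Transgenic (3'RR-BCL2) (Tg, mice 3 and 4) gave 2 lymph node libraries and 1 spleen library, from mouse 4. Mice labelled Knock-in (Igk-BCL2) (KI, mice 5 and 6) gave 2 of each tissue. As the labels name them, BCL2, which codes for an inhibitor of cell death, was driven in the first model by the heavy chain locus control elements known as the 3'RR and in the second placed at the kappa light chain locus. Both act in B lineage cells. Every mouse, wild type included, had been given sheep red blood cells intraperitoneally 3 times over 3 months, and tissue was taken 1 month after the last injection. The comparisons ask whether either setting of BCL2 differs from wild type, and from the other, in each tissue. Because these are whole tissues, a larger share of dividing cells and more transcript per cell cannot be told apart in any result below. The animal numbers in the labels run close together for Wt and Tg mice and lie apart from them for KI mice. Whether the KI mice came from another colony or cohort is not stated. Such a difference could not be told apart from the knock-in.

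Before a cell divides, the origin recognition complex, Cdc6 and Cdt1 load the MCM helicase onto DNA. Cdc45 and the GINS complex switch that helicase on, and polymerases held by the PCNA clamp copy the opened strands while ribonucleotide reductase and thymidylate synthase supply the nucleotides. Most of these genes are transcribed in a wave at the G1 to S transition under E2F transcription factors, and in lymphoid tissue germinal centre B cells are among the cells known to divide fastest.

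In lymph node, 16 of the 44 replication genes were higher in KI than in Wt mice and 1, Cdt1, was lower. A gene is called here when its limma p, adjusted by Benjamini-Hochberg over all 10885 genes, is under 0.05. Across the table, 13.8% of genes were called higher and 12.2% lower in the same comparison. The median log2 difference of the 44 genes was 0.31, against -0.02 over all genes, and 37 of the 44 differences were above 0. The largest differences were those of Mcm10 (1.06 ± 0.30, standard error of the fit), Rrm2 (1.0 ± 0.25), Chaf1a (0.93 ± 0.23), Cdc45 (0.88 ± 0.20) and Cdc6 (0.88 ± 0.29). The higher calls also took in Pola1, Uhrf1, Tyms, Rfc1, Lig1, Prim1, Rfc2, Dnmt1, Rrm1, Mcm6 and Pold3, with differences from 0.36 (Pold3) to 0.84 (Pola1).

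These calls rest on few libraries. The KI lymph node library of mouse 5 lay above that of mouse 6 for 39 of the 44 genes, while 52.9% of all genes lay that way. With mouse 5's lymph node left out, limma called 0 of the 44, with 11 at an unadjusted p under 0.05; the median difference was then 0.22 and 36 of 44 were above 0. Of all genes, 7.92% were still called higher and 5.54% lower in that fit, so the 44 went from above the table's share to below it. Without the Wt lymph node of mouse 2 the count was 2 (9.35% of all genes higher, 7.49% lower), and without that of mouse 1 it was 9 (9.83% and 8.17%). Among the genes given below with every value, Pola1 kept its call without mouse 2, while Mcm6, Cdt1, Cdc45, Rfc2, Lig1, Rrm2, Uhrf1 and Dnmt1 lost it. Without mouse 1, Mcm6, Lig1 and Rrm2 lost theirs. In the lymph node libraries analysed alone the count was 11 (11.2% of all genes higher, 9.1% lower). On read counts recovered from the lymph node columns, edgeR called 12 (11.3% and 8.55%) and DESeq2 16 (13.2% and 11%).

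**Figure D1:**
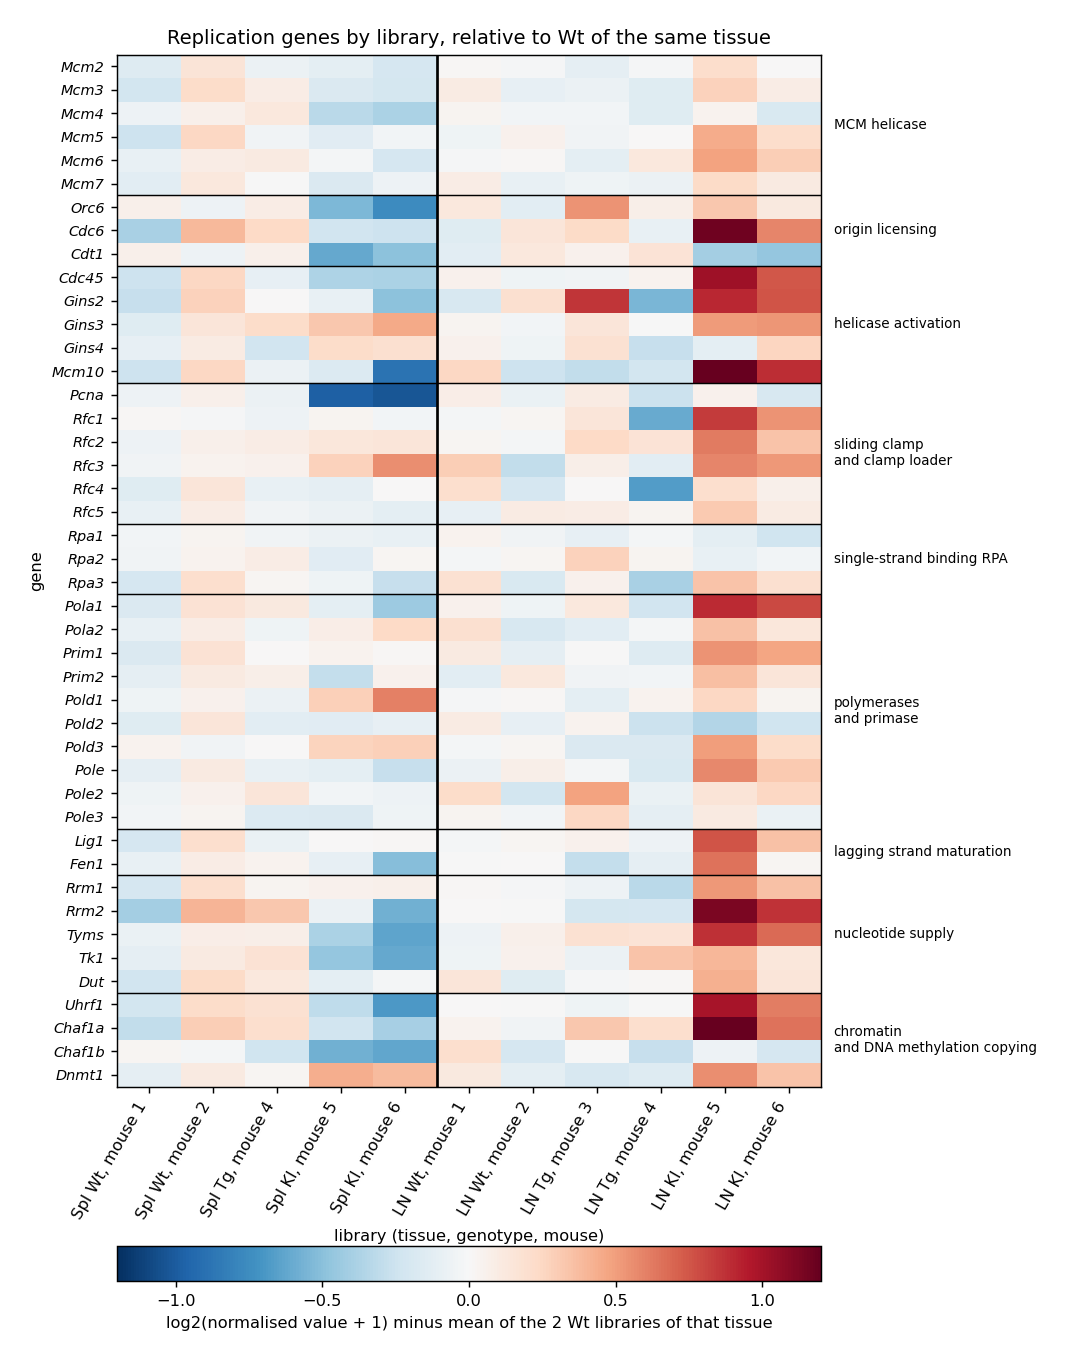
Heat map of the 44 replication genes (rows, grouped by role) in the 11 libraries (columns), coloured by log2(normalised value + 1) minus the mean of the 2 Wt libraries of the same tissue. The KI lymph node columns are mostly red, more so for mouse 5 (median 0.44) than for mouse 6 (median 0.22), while both KI spleen columns have a median of -0.11.

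The promoters of these genes were read because E2F sites are the known shared feature of the group. RefSeq promoter windows on GRCm38.p6, from 250 bases before to 50 after each start, were found for 38 of the 44 genes (46 windows); Gins2, Gins4, Mcm4, Pole, Prim2 and Rfc2 had none. An E2F-type octamer (TTTCCCGC, TTTCGCGC, TTTGCCGC or TTTGGCGC, on either strand) was present for 15 of the 38 genes (39.5%), against 4.88% of the 8496 genes of the whole table with a window, and in 15 of the 46 windows (32.6%), against 4.06% of the 10842 windows of table genes and 2.26% of all 32851 windows of this length. Octamers can overlap each other, as 2 do in Mcm6. A CCAAT box (CCAAT, either strand) was present for 60.5% against 42.9% of genes. The cell cycle element known as CHR (TTTGAA or TTCGAA, either strand) was present for 21.1% against 16.8%. The octamer was found for 7 of the 15 genes with a window that were higher in KI lymph node and for 7 of the 22 that were not called. A match describes these letters only. The 250 bases upstream of 4 starts are printed 5' to 3' in the direction of transcription, with the E2F-type octamers in capitals: Mcm6 as a helicase gene with 3 matches, Pola1 and Uhrf1 as genes higher in KI lymph node with 1 match each, and Pcna, which fell in KI spleen, with none. Of the 2 windows of Uhrf1, the one with a match is shown. Their positions are chr1:128359706-128359955 (Mcm6, minus strand), chrX:93632156-93632405 (Pola1, minus strand), chr17:56304063-56304312 (Uhrf1, plus strand) and chr2:132253181-132253430 (Pcna, minus strand).
Mcm6: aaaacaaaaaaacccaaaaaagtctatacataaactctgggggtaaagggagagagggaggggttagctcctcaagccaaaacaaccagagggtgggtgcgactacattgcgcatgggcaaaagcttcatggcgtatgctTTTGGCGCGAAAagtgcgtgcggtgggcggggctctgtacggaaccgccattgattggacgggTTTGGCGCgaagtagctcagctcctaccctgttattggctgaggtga
Pola1: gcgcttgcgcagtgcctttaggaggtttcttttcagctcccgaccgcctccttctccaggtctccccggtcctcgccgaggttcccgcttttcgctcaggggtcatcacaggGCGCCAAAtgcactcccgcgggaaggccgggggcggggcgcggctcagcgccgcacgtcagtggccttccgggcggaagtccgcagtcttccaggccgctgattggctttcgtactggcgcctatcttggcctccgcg
Uhrf1: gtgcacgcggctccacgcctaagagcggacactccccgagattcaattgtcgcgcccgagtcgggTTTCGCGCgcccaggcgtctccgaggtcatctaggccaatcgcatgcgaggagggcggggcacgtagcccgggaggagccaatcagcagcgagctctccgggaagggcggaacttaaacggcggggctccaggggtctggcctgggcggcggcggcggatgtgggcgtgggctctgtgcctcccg
Pcna: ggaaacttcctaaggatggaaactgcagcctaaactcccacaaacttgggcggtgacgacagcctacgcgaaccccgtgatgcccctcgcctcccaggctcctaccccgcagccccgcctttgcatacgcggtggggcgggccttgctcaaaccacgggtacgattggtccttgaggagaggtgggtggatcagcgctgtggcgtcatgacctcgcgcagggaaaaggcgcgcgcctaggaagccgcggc
With the first transcribed base counted as 0, the octamers of Mcm6 start at -110, -106 and -47, that of Pola1 at -138 and that of Uhrf1 at -185. Cdt1, the gene that was lower in KI lymph node, also held an octamer, at 32.

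Of the 6 subunits of the MCM ring, the helicase that unwinds DNA at the fork, 1 was called in KI lymph node. Across all genes, 13.8% were called higher and 12.2% lower in that comparison. The role groups here and below are too small to read against those shares. Mcm6 read 2674 and 2349 normalised units in the KI lymph nodes of mice 5 and 6, 1885 and 1931 in the Wt lymph nodes of mice 1 and 2, and 1755 and 2084 in the Tg lymph nodes of mice 3 and 4. Both KI libraries lay above all other lymph nodes. The KI minus Wt difference was 0.39 ± 0.12 (adjusted p = 0.0386). In spleen, Mcm6 read 1766 and 1553 in KI, 1684 and 1905 in Wt and 1928 in the single Tg library, so that KI and Wt overlapped. Mcm2, Mcm3, Mcm5 and Mcm7 had lymph node differences of 0.11 to 0.33 and none was called. Mcm4 stood apart from them. It read 1460 and 1252 in KI lymph node and 1451 and 1390 in Wt, which overlap (difference -0.07 ± 0.11). In spleen Mcm4 read 994.8 and 954.4 in KI, below the 1189 and 1297 of Wt, with a difference of -0.35 ± 0.11 that missed the threshold (adjusted p = 0.054). The call on Mcm6 was lost when any 1 of the 4 KI and Wt lymph node libraries was left out, in lymph node analysed alone and in edgeR.

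Origin licensing split by gene. Cdt1, the loading factor that is destroyed once S phase begins, was lower in KI mice in both tissues. It read 1282 and 1231 in KI lymph node against 1558 and 1860 in Wt and 1761 and 1906 in Tg. In spleen it read 1371 and 1494 in KI against 2188 and 2010 in Wt and 2183 in Tg. No KI library overlapped a library of another genotype from its tissue. Cdt1 fell by 0.44 on the log2 scale in lymph node (SE 0.11, adjusted p = 0.0169) and by 0.55 in spleen (SE 0.11, adjusted p = 0.0101). Against Tg lymph node it fell by 0.54 (SE 0.11, adjusted p = 0.0065), a comparison that uses the same KI libraries, and this call was kept under every alternative run. The call against Wt was lost without the lymph node of mouse 2, 5 or 6, and the spleen call without the spleen of mouse 1 or 5. Cdc6, which loads MCM together with Cdt1, rose in KI lymph node (250.2 and 166.6 against 99.98 and 122.5 in Wt; adjusted p = 0.0491) and overlapped between KI and Wt spleen. Orc6, an origin recognition subunit, fell by 0.64 in KI spleen (SE 0.19, adjusted p = 0.0451) and differed by 0.22 ± 0.19 in lymph node, which was not called.

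**Figure D2:**
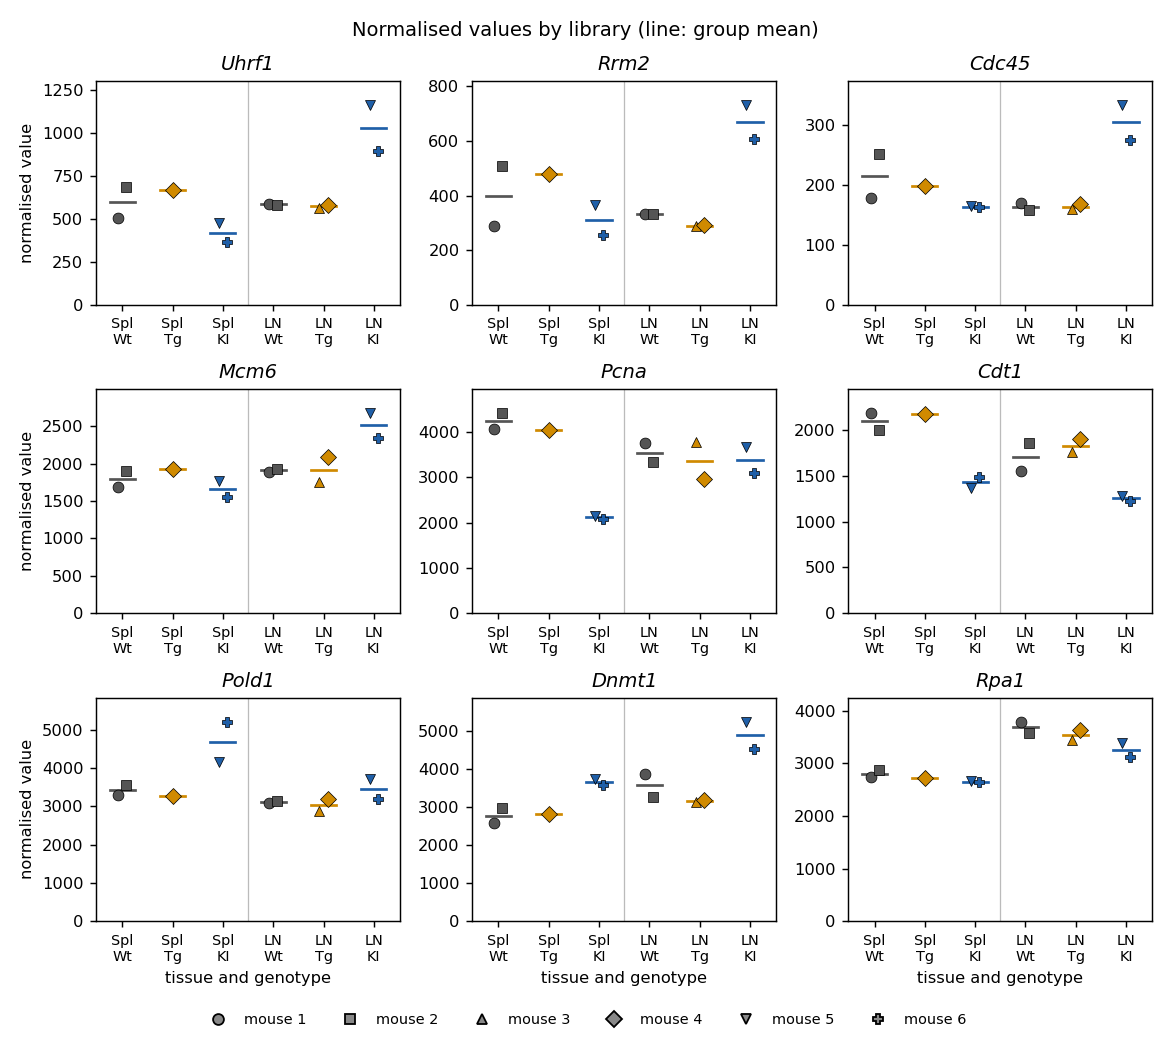
Normalised values (vertical axes, from 0) of 9 replication genes in each library, by tissue and genotype, with 1 symbol per mouse and a line at the group mean. Both KI lymph nodes are above all other libraries for Uhrf1, Rrm2, Cdc45, Mcm6 and Dnmt1, while Pcna is lowest in the KI spleens (2153 and 2081) and Cdt1 is lowest in KI mice within each tissue.

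Of 5 helicase activation genes 2 were called in KI lymph node, where 13.8% of all genes were called higher. Their median difference there was 0.83, the highest of the 9 role groups. That median is the value of Gins2 itself (0.83 ± 0.43, not called), 67.3% of whose exon bases are shared with Gse1 on the other strand. Gse1 read 1740 to 2297 in the 6 lymph nodes, so the Gins2 reads may not be separate from it. Cdc45, which joins MCM and GINS into the active helicase, read 332.6 and 274.7 in KI lymph node, 169.3 and 157.5 in Wt and 158.5 and 167.9 in Tg. The KI values were apart from the other 4, and the difference from Wt was 0.88 ± 0.20 (adjusted p = 0.00883). Cdc45 shares 5.96% of its exon bases with Ufd1 on the other strand. Ufd1 read 934 and 924 in KI lymph node and 986.9 and 925.5 in Wt. In spleen Cdc45 read 163.8 and 161.9 in KI, 178.2 and 250.9 in Wt and 197.3 in Tg, with KI lowest (-0.37 ± 0.20, adjusted p = 0.225). Mcm10, which helps start unwinding, rose 2.09-fold in KI lymph node (adjusted p = 0.0248). Gins3, a GINS subunit, read 173.4 and 175.8 in KI lymph node against 124.2 and 119.2 in Wt and 134.5 and 121.5 in Tg. Its spleen values were 141.5 and 154.8 in KI, 102.1 and 124.3 in Wt and 131.8 in Tg. Gins3 was thus highest in KI in both tissues, with differences of 0.52 ± 0.20 and 0.39 ± 0.20 that were not called (adjusted p = 0.0787 and 0.201). Gins2 spread widely among replicates, from 41.35 to 111.8 in the 2 Tg lymph nodes, and Gins4 differed by 0.07 ± 0.18.

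The sliding clamp gene was called in spleen and 2 of the 5 clamp loader genes in lymph node. Of all genes, 9.21% were called lower in KI spleen and 13.8% higher in KI lymph node. Pcna, the ring that tethers polymerases to DNA, read 3661 and 3100 in KI lymph node, 3748 and 3335 in Wt and 3776 and 2957 in Tg. All 3 genotypes overlapped there, and the KI minus Wt difference was -0.07 ± 0.14. In spleen Pcna read 2153 and 2081 in KI against 4060 and 4416 in Wt and 4043 in Tg. KI was at about 0.5 of Wt: Pcna fell by 1.0 as a log2 difference there (SE 0.14, adjusted p = 0.00139), the largest spleen difference among the 44 genes. This call was kept under every alternative run, with values from -1.06 to -0.94. Rfc2, a subunit of the clamp loader, read 2230 and 1845 in KI lymph node against 1480 and 1424 in Wt and 1710 and 1622 in Tg, a rise of 0.48 ± 0.11 over Wt (adjusted p = 0.00954). Its spleen values of 1949 and 1970 in KI, 1702 and 1853 in Wt and 1894 in Tg differed by 0.14 ± 0.11. Exons of Rfc2 share 15.1% of their bases with Lat2 on the opposite strand in GENCODE M21, and Lat2 read 1319 and 1191 in KI lymph node against 677.3 and 688.1 in Wt. Whether the authors' counting used strand is not given in the sources used here, so the 2 genes' reads may not be separate. The loader's large subunit Rfc1 rose 1.61-fold (adjusted p = 0.0355), and Rfc3, Rfc4 and Rfc5 were not called (0.13 to 0.56).

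None of the 3 RPA genes, whose protein coats single-stranded DNA, was called in KI mice in either tissue. Rpa1, the large subunit, read 3395 and 3121 in KI lymph node, 3793 and 3572 in Wt and 3435 and 3624 in Tg. KI lay lowest, by 0.18 (SE 0.10, adjusted p = 0.21). In spleen it read 2672 and 2636 in KI, 2732 and 2872 in Wt and 2719 in Tg, with KI again lowest (-0.08 ± 0.10, adjusted p = 0.615).

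Among 10 polymerase and primase genes 3 rose in KI lymph node, where 13.8% of all genes were called higher. They included Pola1 and Prim1 of the polymerase alpha and primase complex. Pola1, the catalytic subunit of the polymerase that extends primers, read 603.6 and 563.1 in KI lymph node, 337 and 312.9 in Wt and 353.8 and 276.8 in Tg. The KI libraries stood clear of the other 4. Pola1 rose by 0.84 ± 0.18 (adjusted p = 0.00669), a call lost only without the KI lymph node of mouse 5 among the alternatives run. In spleen it read 311.3 and 249.3 in KI, 299.9 and 379.9 in Wt and 365.8 in Tg, which overlap. The primase subunit Prim1 rose 1.42-fold in lymph node (adjusted p = 0.0355). Pold1, the catalytic subunit of the polymerase that makes the lagging strand, was called in spleen and not in lymph node. It read 4167 and 5216 in KI spleen against 3304 and 3555 in Wt and 3262 in Tg, a rise of 0.44 ± 0.13 (adjusted p = 0.0396). In lymph node Pold1 read 3715 and 3188 in KI, 3090 and 3148 in Wt and 2872 and 3205 in Tg, with a difference of 0.14 ± 0.13. The spleen call was lost without the spleen of mouse 1, 2 or 6 or the lymph node of mouse 1 or 2. Pold3, an accessory subunit, rose in lymph node (0.36 ± 0.12) and read 971.6 and 985.9 in KI spleen against 829 and 785.8 in Wt, not called there (0.28 ± 0.12). Pole, the leading strand polymerase, had a lymph node difference of 0.44 ± 0.15 just outside the threshold (adjusted p = 0.0534).

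For the joining of Okazaki fragments, Lig1, the DNA ligase, read 1679 and 1276 in KI lymph node, 978.8 and 1015 in Wt and 1030 and 953.7 in Tg. Both KI libraries were above the rest, mouse 5 by more, and the rise was 0.55 ± 0.16 (adjusted p = 0.0247). In spleen Lig1 read 969.1 and 975.8 in KI, between the 836.5 and 1111 of Wt, with 911.2 in Tg. Fen1, the flap nuclease, read 111.9 and 72.4 in KI lymph node, 70.95 and 71.11 in Wt and 58.03 and 65.83 in Tg. Mouse 6 of the KI pair was thus level with Wt. In spleen Fen1 read 72.04 and 53.74 in KI, 72.41 and 81.8 in Wt and 79.06 in Tg. In GENCODE M21, 78.8% of Fen1 exon bases are shared with an antisense gene on the other strand, so its reads too may be split or mixed.

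Nucleotide supply genes had positive lymph node differences for all 5, of which 3 were called, where 13.8% of all genes were called higher. Rrm2, the S-phase subunit of ribonucleotide reductase, read 732.1 and 609.1 in KI lymph node, 333.8 and 332.6 in Wt and 287.3 and 290.3 in Tg. Rrm2 was thus higher in both KI mice than in the other 4, by 1.0 ± 0.25 over Wt (adjusted p = 0.0157). In spleen Rrm2 read 366.2 and 256.5 in KI, 289.6 and 507.3 in Wt and 480.8 in Tg, a spread between the Wt mice as wide as any difference between genotypes. Tyms, thymidylate synthase, rose 1.71-fold in lymph node (adjusted p = 0.0172) and Rrm1, the large reductase subunit, 1.35-fold (adjusted p = 0.047). Tk1, the thymidine salvage kinase, read 497.2 and 414.9 in KI lymph node, 362.8 and 390.5 in Wt and 358.1 and 477.7 in Tg, where KI and Tg overlapped. In spleen Tk1 read 402.2 and 361.1 in KI against 516.2 and 596.2 in Wt and 627.7 in Tg. KI was lowest there, with a difference of -0.54 ± 0.17 just outside the threshold (adjusted p = 0.0507).

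Of the 4 genes that copy chromatin and DNA methylation behind the fork, 3 rose in KI lymph node. Across all genes, 13.8% were called higher there. Uhrf1, which reads hemimethylated DNA and recruits the methyltransferase Dnmt1, read 1163 and 895.3 in KI lymph node, 588.6 and 582 in Wt and 563.3 and 581.5 in Tg. The 4 Wt and Tg libraries lay close together and both KI libraries far above them (0.80 ± 0.19, adjusted p = 0.00946). In spleen Uhrf1 read 476 and 364 in KI, below the 505 and 687.4 of Wt and the 670 of Tg, with a difference of -0.50 ± 0.19 that was not called (adjusted p = 0.0882). Dnmt1, the maintenance methyltransferase, was higher in KI in both tissues. It read 5259 and 4534 in KI lymph node, 3883 and 3283 in Wt and 3129 and 3201 in Tg, a rise of 0.45 ± 0.12 (adjusted p = 0.0202). In spleen Dnmt1 read 3744 and 3601 in KI, 2579 and 2983 in Wt and 2819 in Tg, a rise of 0.40 ± 0.12 (adjusted p = 0.0455). The spleen call on Dnmt1 was lost when any 1 spleen library of KI or Wt, or either KI lymph node, was left out. Chaf1a, the large subunit of the histone chaperone CAF-1, rose 1.90-fold in lymph node (adjusted p = 0.0135), though 52.5% of its exon bases are shared with Ubxn6 on the other strand. Ubxn6 itself read 305.1 and 389.6 in KI against 403.1 and 376.3 in Wt lymph node. The small subunit Chaf1b was not called (-0.13 ± 0.19).

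In spleen the median KI minus Wt difference of the 44 genes was small and most differences were below 0, with calls in both directions. Pold1 and Dnmt1 were higher and Pcna, Cdt1 and Orc6 lower, where 7.63% of all genes were called higher and 9.21% lower. The median difference was -0.11, against 0.01 over all genes, and 11 of the 44 were above 0. Cdt1 and Dnmt1 were the 2 genes called in both tissues, each in the same direction in both. The Wt spleens differed between themselves: mouse 2 lay above mouse 1 for 39 of the 44 genes, where 53% of all genes did. Without the Wt spleen of mouse 1 the median was -0.28, and without that of mouse 2 it was -0.01. Without either KI spleen, or without either KI lymph node, the median stayed at -0.11. Fewer of the 44, and of all genes, were called without any 1 of these KI or Wt libraries. Under trimmed mean scaling, under quantile normalisation or in spleen analysed alone, 8 were called, 2 higher and 6 lower. Of all genes, 7.5% were higher and 9.4% lower under trimmed mean scaling. The shares were 9.86% and 9.29% under quantile normalisation, and 10.4% and 11.9% in spleen alone.

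**Figure D3:**
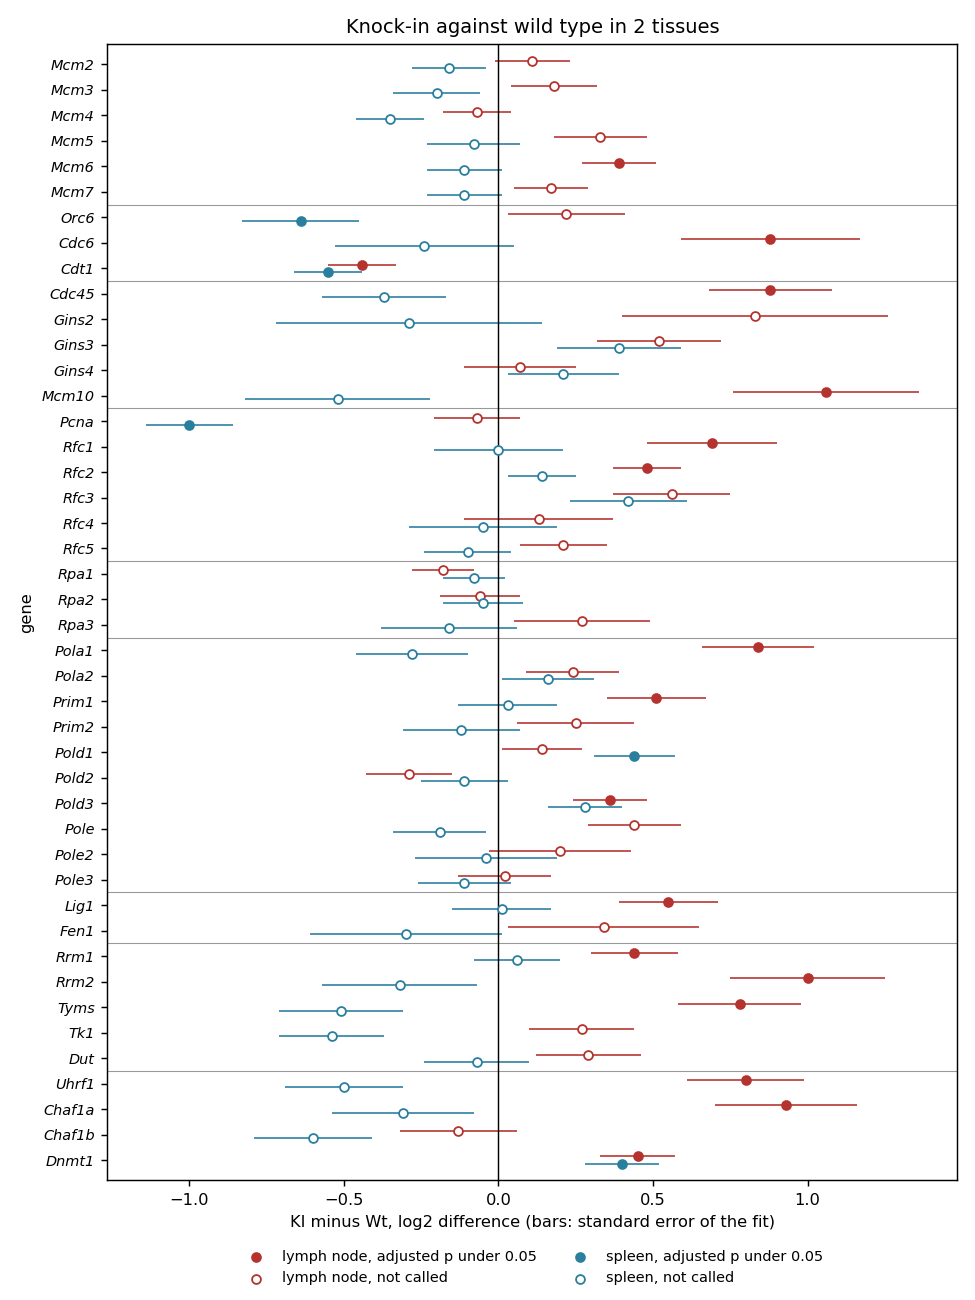
KI minus Wt log2 difference of each replication gene (horizontal axis; bars are the standard error of the fit) in lymph node (red) and spleen (blue), with filled points for adjusted p under 0.05. Most red points lie to the right of the blue point of the same gene; Pcna stands alone at -1.0 in spleen, and Cdt1 lies to the left of 0 in both tissues.

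The difference between tissues was tested directly as the KI minus Wt difference in lymph node less that in spleen. It was above 0 for 39 of the 44 genes, with a median of 0.38 against -0.01 over all genes. One gene passed the threshold, Uhrf1 (1.30 ± 0.26, adjusted p = 0.0483), where 0.763% of all genes passed in the positive direction and 0.193% in the negative, and its call was lost without any 1 library other than the Tg spleen and the KI spleen of mouse 5. Rrm2 (1.32 ± 0.36, adjusted p = 0.107), Tyms (1.28 ± 0.29, adjusted p = 0.0671), Chaf1a (1.24 ± 0.33, adjusted p = 0.0954) and Pcna (0.93 ± 0.19, adjusted p = 0.0543) did not pass. Since every Wt and KI mouse gave both tissues, the same test was run with the mouse as a fixed block. It called 10 genes: Cdc45, Uhrf1, Chaf1a, Pola1, Rrm2, Tk1, Tyms, Mcm10, Pcna and Rfc1. A term for each mouse leaves fewer residual degrees of freedom than the 5 of the unblocked fit, so these calls rest on a less certain spread. With the mouse as a random term (correlation 0.0168) the count of calls did not change. The fixed block raised calls across the whole table too, to 4.46% of all genes in the positive and 1.02% in the negative direction. In the fixed block fit Uhrf1 kept its size (1.30 ± 0.20, adjusted p = 0.00289), and Pcna was next (0.93 ± 0.17, adjusted p = 0.00726). Dnmt1 (0.05 ± 0.17) and Cdt1 (0.11 ± 0.16), the genes called in both tissues, had small differences between tissues in the unblocked test.

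Lymph node and spleen were also compared within a genotype. In KI mice 14 of the 44 genes were higher in lymph node than in spleen and 0 lower, where 4.78% of all genes were higher and 4.49% lower. They were Mcm2, Mcm3, Mcm4, Mcm6, Cdc45, Mcm10, Pcna, Pola1, Pole, Lig1, Rrm2, Tyms, Uhrf1 and Chaf1a. With the mouse as a block 18 were called, all higher, the same 14 and Mcm5, Orc6, Rfc1 and Pole2, where 7.3% of all genes were higher and 6.22% lower. Without the block Uhrf1 had the smallest p (1.29 ± 0.19, adjusted p = 0.00207) and kept its call under every alternative run. The median of the 44 differences was 0.48 with all libraries. It was 0.45 without the KI spleen of mouse 6 and 0.49 without that of mouse 5. It was 0.34 without the KI lymph node of mouse 5 and 0.56 without that of mouse 6. Fewer of the 44, and of all genes, were called without any 1 of these KI libraries. In Wt mice 1 of the 44 was called, Rpa1, higher in lymph node by 0.39 ± 0.10 (adjusted p = 0.0284), where 3.09% of all genes were higher and 6.29% lower. Leaving out any 1 of the 4 Wt libraries ended that call. With the mouse as a block, Tk1 joined it, lower in lymph node (-0.56 ± 0.13, adjusted p = 0.0147), where 5.11% of all genes were higher and 9.38% lower.

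Between Tg and Wt mice none of the 44 genes was called. In lymph node limma called 0 of the 44, and 0% of all genes in either direction; 0 of the 44 had an unadjusted p under 0.05, and edgeR and DESeq2 on recovered reads called 0 of the 44. Over all genes edgeR called 0, with 377 at an unadjusted p under 0.05, and DESeq2 called 27 higher and 1 lower; limma had 532 at an unadjusted p under 0.05. The 44 differences ran from -0.33 (Rfc4) to 0.30 (Orc6) with a median of -0.04. The smallest p was that of Rfc2 (0.20 ± 0.11, adjusted p = 0.96), whose 2 Tg values both lay above the 2 Wt values. The standard error of a lymph node difference was 0.10 (Rpa1) to 0.43 (Gins2), which limits what 2 mice against 2 could show. In spleen the Tg group was 1 library with no spread of its own. The limma count of 0 of the 44 (0 at an unadjusted p under 0.05) and 0% of all genes assumes that it varies like the other groups, and says little on whether Tg and Wt spleen differ. Its values lay from -0.24 (Chaf1b) to 0.33 (Rrm2) relative to the Wt mean.

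Against Tg rather than Wt, KI lymph node was higher for 15 of the 44 genes and lower for Cdt1, where 14.5% of all genes were called higher and 12.2% lower. Both comparisons use the same KI libraries. The calls were the same for 14 genes; Cdc6, Rfc2 and Chaf1a were called only against Wt, and Rfc3 and Pole only against Tg, while the gap between these comparisons is the Tg minus Wt difference, which was not called for any of them. Rfc2 differed by 0.48 from Wt and by 0.28 from Tg, with the Tg values between the other groups. The median of the 44 differences was 0.37. It was 0.26 without the KI lymph node of mouse 5 and 0.32 without the Tg lymph node of mouse 4. In both of these fits fewer of the 44, and of all genes, were called.

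Genes next to the 44 in the pathway were counted from lists of the same kind. In KI against Wt, 13.8% of all genes were called higher and 12.2% lower in lymph node, and 7.63% and 9.21% in spleen. Of 29 other replication genes, 9 rose and 0 fell in KI lymph node, with a median of 0.27; they included Dna2, a flap and resection nuclease (1.66 ± 0.27, adjusted p = 0.00154), Clspn, the checkpoint mediator claspin (1.36 ± 0.33, adjusted p = 0.0136), and Asf1b, a histone chaperone (1.09 ± 0.23, adjusted p = 0.00558). In spleen 1 of the 29 was called, Dbf4, the activating subunit of the kinase that fires origins, which fell by 1.09 (SE 0.21, adjusted p = 0.00721). Its values of 313 and 273 in KI spleen lay below the 633.1 and 611.9 of Wt. Of 20 checkpoint and fork repair genes, 7 rose in KI lymph node (median 0.40), among them Fanca (1.10 ± 0.16) and Brca1 (1.36 ± 0.22), which act in fork repair, and 0 were called in spleen by limma, with 4 at an unadjusted p under 0.05. Of 15 further nucleotide synthesis genes 4 rose and 1 fell in lymph node. The largest rise was that of Dck, the deoxycytidine salvage kinase (1.25 ± 0.14, adjusted p = 0.00021), and the list's median was -0.08.

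Regulators of entry into S phase were called in both directions in KI lymph node, where 13.8% of all genes were called higher and 12.2% lower. Of 21 G1/S regulators 7 rose and 2 fell in KI lymph node (median 0.39). The activator genes E2f2 (0.98 ± 0.15, adjusted p = 0.000973) and E2f3 (0.91 ± 0.18, adjusted p = 0.00443) rose. Myc, a growth regulator, went the other way in both tissues. It read 1154 and 1269 in KI lymph node against 3096 and 3369 in Wt, and 933.1 and 1128 in KI spleen against 5049 and 4226 in Wt. The 2 groups were far apart, and Myc fell by 1.42 in lymph node (SE 0.15, adjusted p = 0.000125) and by 2.17 in spleen (SE 0.15, adjusted p = 5.36e-05). Of 13 genes that restrain the cycle, 3 rose and 2 fell in lymph node, too few to read against the share of all genes. Among them were Cdkn2c, an inhibitor of the G1 kinases (1.18 ± 0.26), and the antiproliferative genes Tob1 (-1.11 ± 0.17) and Btg1 (-0.84 ± 0.15). Tob1 and Btg1 fell in spleen as well, by 1.60 and 1.05. Cdkn1a (-0.95 ± 0.23) and Btg2 (-0.51 ± 0.14), which restrain the cycle, were also called lower in KI spleen. E2f5 (0.54 ± 0.16) was called higher there. The G1/S regulator Cdk6 was called lower in KI spleen (-0.76 ± 0.15). In that comparison 7.63% of all genes were called higher and 9.21% lower.

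Markers of division and of other cell types also differed in KI mice, not always alongside the replication genes, and their part in these results was not tested. In KI against Wt, 13.8% of all genes were called higher and 12.2% lower in lymph node, and 7.63% and 9.21% in spleen. All 20 mitosis genes rose in KI lymph node (median 1.32, from 0.86 to 1.89), beside a median of 0.31 for the replication genes. Their summed normalised value was 12834 to 16605 in KI lymph node, against 5494 to 5533 in Wt and 4818 to 6407 in Tg. In spleen limma called 0 of the 20, with 6 at an unadjusted p under 0.05 and a median of -0.59; the sum was 6240 and 3565 in KI mice 5 and 6, 5584 and 8901 in Wt mice 1 and 2 and 8126 in Tg. Germinal centre B cell markers, 9 of 10 of them higher in KI lymph node, summed to 20809 to 27206 there, 4365 to 4860 in Wt and 6986 to 8799 in Tg lymph node. In spleen they summed to 7095 to 9506 in KI, 4248 to 4675 in Wt and 6044 in Tg, so the marker sum was also above Wt in KI spleen and in Tg lymph node, where the replication genes had medians of -0.11 and -0.04. Plasma cell markers, 9 of 10 higher, summed to 146084 to 151095 in KI and 8176 to 11685 in Wt lymph node, and to 77769 to 126891 in KI and 23320 to 26269 in Wt spleen. Pan T cell markers were lower for 10 of 10 in both tissues of KI mice, at 31355 to 36877 against 68196 to 71668 in lymph node and 18078 to 19301 against 37214 to 37980 in spleen. Pan B cell markers rose for 7 of 10 in lymph node, from 62154 to 70438 up to 90723 to 113107.

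Spleen also holds dividing red cell and myeloid precursors, and their markers varied between single libraries. The 11 erythroid markers measured summed to 27333 and 4123 in the KI spleens of mice 5 and 6 and to 2203 to 2691 in Wt. In lymph node the sums were 1162 to 1209 in KI and 2325 to 3225 in Wt, with Slc4a1 at 0 in the lymph node of mouse 1. The 10 neutrophil and precursor markers summed to 6312 and 49552 in the Wt spleens of mice 1 and 2, 42690 in the Tg spleen, and 2177 and 6635 in the KI spleens of mice 5 and 6. The Wt spleen of mouse 2, which lay above mouse 1 for most replication genes, was thus the Wt library with more of both these markers and the mitosis genes. In lymph node those sums were 108 to 1720 in all groups, with Elane at 0 in the lymph nodes of mice 1 and 4 and Prtn3 at 0 in those of mice 1 and 3. Macrophage markers summed to 1094 to 1184 in KI and 1669 to 2380 in Wt lymph node, and to 9188 to 9715 and 7697 to 8308 in spleen. Those of NK cells summed to 2206 to 2887 and 3320 to 3869 in lymph node and to 2319 to 3199 and 3907 to 4815 in spleen.

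**Figure D4:**
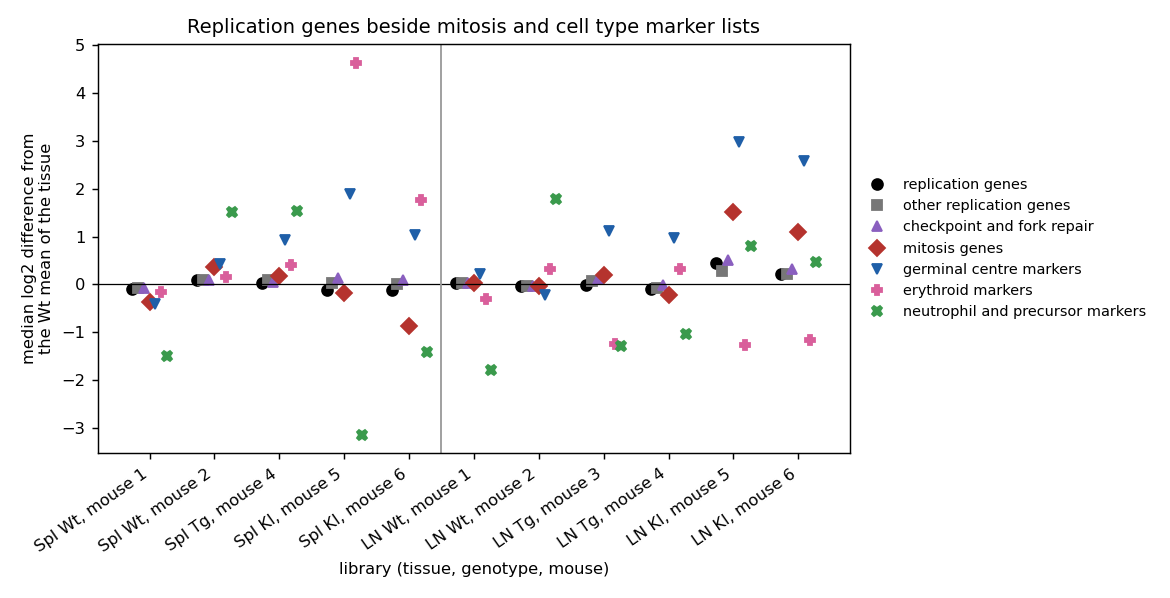
Median log2 difference from the Wt mean of the tissue (vertical axis) of the replication genes and 6 other gene lists in each of the 11 libraries. In KI lymph node the mitosis genes (1.52 and 1.09) and germinal centre markers (2.98 and 2.59) lie well above the replication genes (0.44 and 0.22), and in spleen the erythroid and neutrophil lists differ between libraries of one genotype.

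The libraries held 11128568 to 21067988 recovered reads in lymph node and 18994455 to 24110325 in spleen over the 10885 genes. Mouse 1 differed from the other 5 in sex: Xist read 14513 and 12314 in its spleen and lymph node and at most 8.045 elsewhere, so the Wt group holds both sexes and the others 1. The mouse Bcl2 row read 1246 and 1664 in KI lymph node and 2338 and 2716 in Wt. The labels do not say whether the added BCL2 would be counted in that row, so it does not check the genotypes.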

How the data were processed

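Whole-cell RNA of spleen and lymph node was measured in 11 libraries of 6 mice. The deposited values are a normalised signal: gene read counts that the authors divided by 1 factor per library, as the values show, since 100% of them are whole multiples of 1 step per library within 0.05 reads. Per the submitters' processing notes, FastQC 0.11.5, STAR 2.5, featureCounts (Subread 1.4.6), DESeq2 1.26.0 and GRCm39 were used; strand setting, annotation and gene filter are not stated there. The values are not per length, so levels were not compared between genes. Group was taken from the labels.

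From these values, log2(value + 1) was fitted with limma 3.58.1 (R 4.3.3; empirical Bayes with trend and robust options) as 6 group means over all 11 libraries, with 5 residual degrees of freedom; p-values were adjusted by Benjamini-Hochberg over 10885 genes and called under 0.05. Differences are on that scale, which understates low genes. Groups hold 2 mice, or 1 for Tg spleen, which limits precision. The spread between mice is shared over groups. Reads recovered from the lymph node columns (signal divided by its step) were tested with edgeR 4.0.16, which called 1228 genes higher and 931 lower in KI against Wt, and with DESeq2 1.42.0. The scripts were tested on simulated data.

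The replicate number names the mouse in both tissues. Deviations of the paired libraries from their group means correlated across genes at 0.403 (Wt) and 0.900 (KI), so fits with the mouse as a block were made as well. As a random term the mouse had a correlation of 0.0168. The fixed block leaves fewer residual degrees of freedom than the 5 of the main fit. Alternatives were pseudocounts of 0.1 and 5, a mean of at least 250, trimmed mean (TMM) scaling, quantile normalisation, 1 tissue at a time, and each library left out.

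Members, role groups, lists and tests were chosen with earlier results of these data known. Named with values in every library are, for each of 9 roles, the genes with the smallest p in KI against Wt in each tissue, those called against the majority, and the smallest p in Tg lymph node and between tissues; Cdc6, Mcm10 and others are named because they were called. Promoters come from RefSeq on GRCm38.p6 and exon overlap from GENCODE M21, which are not the authors' build, so they give names, sequence and neighbours only. Exons of 14 of the 44 genes share bases with another gene, and of 11 with another gene of the table. These include Cdc45 (5.96% of its exon bases, with Ufd1), Orc6 (6.93%, with Vps35) and Rfc4 (12.7%, with Eif4a2). Each of those neighbours read higher than the gene it overlaps, so their reads may not be separate. Some genes of the marker and pathway lists are not reported here by name.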

Additional observations from a re-analysis of the deposited data

Results flagged for a closer look

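Uhrf1 differed between tissues in its KI minus Wt difference. The KI minus Wt difference was 0.80 in lymph node and -0.50 in spleen, and the test of the difference itself gave 1.30 ± 0.26 on the log2 scale (limma, adjusted p = 0.0483), with both KI lymph nodes above and both KI spleens below the Wt libraries of their tissue. Over the alternatives run the value lay between 1.08 and 1.52. The call was lost without any 1 library other than the Tg spleen and the KI spleen of mouse 5. It was also lost with genes of a mean under 250 left out.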

How the results depend on the processing

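Counts are of the 44 genes called by limma unless another tool is named. Leaving out each library in turn gave 0 to 18 calls for KI against Wt in lymph node (17 with all libraries), 1 to 8 in spleen (5), 3 to 16 for KI against Tg in lymph node (16), 0 to 2 for the difference between tissues (1), 0 to 2 for lymph node against spleen in Wt (1) and 1 to 17 in KI (14). It gave 0 to 0 for Tg against Wt in both tissues. KI against Wt in lymph node gave 11 under quantile normalisation (11.4% of all genes higher, 13% lower) and 11 in that tissue alone (11.2% and 9.1%). In spleen it gave 8 under TMM scaling (7.5% and 9.4%), 8 under quantile normalisation (9.86% and 9.29%) and 8 in that tissue alone (10.4% and 11.9%). With genes of a mean under 250 left out, 33 of the 44 were kept. The difference between tissues then gave 0 (11 at an unadjusted p under 0.05), where 0.645% of all genes were higher and 0.158% lower. Lymph node against spleen in KI gave 9 (4.16% and 3.26%). With the mouse as a fixed block, the pairing of tissues gave 10 calls for the difference between tissues (4.46% of all genes higher, 1.02% lower). It gave 2 for lymph node against spleen in Wt (5.11% and 9.38%) and 18 in KI (7.3% and 6.22%). As a random term (correlation 0.0168) the replicate block changed no count. Of 31 called results of the named genes, 26 lost the call in some alternative, 26 of them with a library left out and 3 otherwise too, 5 kept it and 0 reversed. A left-out library can leave 1 in its group, which is then assumed to vary like the others. Calls over all genes moved too in those fits, so the counts do not describe the 44 genes alone. Quantile normalisation moved the median of all genes to -0.07 in KI against Wt lymph node. The low-level genes, such as Fen1 and Gins2, are the least precise.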
